A study of Mus musculus with 6 samples.

Results

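The integrated stress response genes Atf3, Atf4, Atf5, Ddit3, Trib3, Chac1, Asns, Sesn2, Xbp1 and Ppp1r15a were examined in the mouse hippocampus after traumatic brain injury (TBI). These 10 genes were chosen by symbol, as genes of the ATF4 pathway and of the unfolded protein response, from the 52550 gene identifiers in the deposited files. RNA-seq libraries came from the hippocampus of male mice of the strain C57BL / 6 in the labels, written C57B6/J in the study's methods, with 3 mice in the sham group (Sham1 to Sham3) and 3 in the TBI group (TBI1 to TBI3), and 1 library per mouse. TBI was a controlled cortical impact, in which a piston strikes the exposed cortex, set to moderate severity on the right side. Sham mice had the same anesthesia and opening of the skull without the strike, so both groups carried the surgery. Tissue was taken 24 h after surgery from young adult animals, and no transgene or drug distinguished the groups. The study describes the tissue as the whole hippocampus, and its methods describe exposing the hippocampus of the opposite side as well.

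The integrated stress response is a shared brake on protein synthesis. Kinases that sense misfolded protein in the endoplasmic reticulum (ER), shortage of amino acids, viral RNA or shortage of heme phosphorylate the initiation factor eIF2, which lowers translation of most mRNAs while that of ATF4 goes up. ATF4 then switches on genes for amino acid supply, for other transcription factors such as CHOP (the product of Ddit3), and for the phosphatase subunit GADD34 (Ppp1r15a) that removes the phosphate again. Xbp1 belongs to a neighbouring arm, in which the ER sensor IRE1 splices its mRNA. Because much of the pathway is controlled in translation and by splicing, gene-level RNA counts do not measure eIF2 phosphorylation, ATF4 protein or spliced Xbp1.

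None of the 10 genes was called between TBI and sham. A call needed an edgeR p under 0.05, a Benjamini-Hochberg adjusted p under 0.1 over all tested genes and a fold change above 1.5 in either direction. The count was 0 of 10 genes, against 0 of 18795 genes in the whole table (0.0%). At an unadjusted p under 0.05, 0 of the 10 genes passed, against 4.29% of all tested genes (806 genes). DESeq2 with its defaults called 46 of 20988 genes (0.219%). It called 0 of the 9 stress response genes to which it gave a p, and gave none to Atf3. Within the sham group, the library Sham2 held the highest level of all 3 sham libraries for each of the 10 genes, against 38.9% of all tested genes.

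The libraries held 31630936 to 41771872 estimated counts, and all 10 genes passed the filter on low values. The hippocampal neuron markers were all detected, with a summed level of 765 to 1008 CPM in sham (estimated counts scaled to a common library total and composition) and 396 to 668 in TBI. Several libraries stood apart in markers of other regions and cells. TBI1 held 3736 CPM of striatal markers against 133 to 190 in the other libraries, with no marker of this list at 0. TBI3 held 1066 CPM of cerebellar markers against 1.57 to 5.70 elsewhere, where Gabra6, Fat2 and Skor2 were at 0 in some library. Choroid plexus markers summed to 54.4 CPM in Sham2, 243 in TBI1 and 261 in TBI3 against 2034 to 2366 in the other libraries, with Slc4a5 at 0 in some library. The reactive astrocyte markers summed to 4998 CPM in Sham2 against 642 to 1779 in the other libraries, and none of them was at 0. In bulk tissue, fewer cells of a type and less RNA per cell cannot be told apart.

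Promoter sequence of the genes that carry a known binding motif is shown first, because these motifs are the sequences through which ATF4 and related factors act. A window of 250 bases before to 50 bases after each annotated start was taken from RefSeq (GRCm38.p6) for all 10 genes, 11 windows in all, since Atf5 has a pair of starts. Both strands were searched for the C/EBP-ATF element TGATGNAAN, its stricter form TGATGCAA (which lies within the first), the cAMP response element TGACGTCA and the ER stress response element (CCAAT, a gap of 9 bases of any kind and CCACG). The C/EBP-ATF element was found in 4 of the 11 windows, those of Atf3, Trib3, Chac1 and Asns, and in 3.95% of all 32851 windows. The stricter form was found in Atf3 and Chac1 and in 0.895% of all windows. The cAMP response element was found in Ppp1r15a and in 1.79% of all windows. The ER stress response element matched none of the 11 windows and 0.119% of all windows. Since the 10 genes were chosen as pathway genes, these shares do not bear on the levels measured here. Each stretch below is written 5′ to 3′ on the strand of its gene, with the match in capitals. The stretches stop where GENCODE vM21 begins an exon, except for Asns, where 30 bases around a match inside the annotated first exon are given.
Atf3 (chr1:191183341-191183583, minus strand): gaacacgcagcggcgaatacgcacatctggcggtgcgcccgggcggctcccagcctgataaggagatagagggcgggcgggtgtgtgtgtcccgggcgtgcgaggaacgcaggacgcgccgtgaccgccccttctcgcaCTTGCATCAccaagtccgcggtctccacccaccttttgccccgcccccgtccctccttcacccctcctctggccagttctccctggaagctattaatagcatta
Chac1 (chr2:119350992-119351228, plus strand): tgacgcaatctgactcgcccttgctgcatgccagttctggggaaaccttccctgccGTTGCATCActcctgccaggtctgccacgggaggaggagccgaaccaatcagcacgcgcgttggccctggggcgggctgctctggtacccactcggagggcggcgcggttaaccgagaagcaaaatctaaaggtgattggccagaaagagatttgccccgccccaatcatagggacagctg
Asns (chr6:7693213-7693242, minus strand): cccagccacaTGATGAAACttcccgcacgc
Ppp1r15a (chr7:45526269-45526329, minus strand): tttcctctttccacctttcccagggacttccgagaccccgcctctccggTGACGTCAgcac
The Atf3 match reads TGATGCAAG on the opposite strand, from -111 to -103 relative to the RefSeq start. The Chac1 match reads TGATGCAAC on the opposite strand from -194 to -186, and the Asns match reads TGATGAAAC on the strand of the gene from -23 to -15. The Ppp1r15a match lies from -12 to -5 and reads the same on both strands. The Trib3 match, TGATGTAAA, lies after the start, from +14 to +22, and its sequence is not shown. A match describes letters only, and no binding was measured.

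Atf3 encodes a transcription factor of immediate stress responses and of injured neurons. The gene (ENSMUSG00000026628.13) spans chr1:191170296-191218039 on the minus strand of GRCm38. Its level was 0.593, 17.9 and 0.938 CPM in Sham1, Sham2 and Sham3, and 4.53, 4.11 and 0.899 CPM in TBI1, TBI2 and TBI3. The groups overlapped, with Sham2 above every other library and TBI3 beside the low sham libraries. In estimated counts, Sham2 held 719 while the other 5 libraries held 24 to 185. Sham2 was 23.4 times the mean of Sham1 and Sham3, and the spread in sham (a coefficient of variation, SD over mean, of 153%) was larger than that of 99.5% of tested genes. The sham mean was 6.48 ± 9.91 CPM and the TBI mean 3.18 ± 1.99 CPM, each with its SD over n = 3 libraries. The log2 fold change was -1.03 (SE 1.30, edgeR adjusted p = 0.982), with an interval from 0.0567-fold to 4.25-fold, so the difference was smaller than the spread between replicates. Without Sham2 the log2 fold change was 2.05, with an unadjusted p of 0.0398 and an edgeR adjusted p of 0.997. Among the 19298 genes tested without Sham2, 3.39% had an unadjusted p under 0.05. The direction of Atf3 thus rested on 1 library.

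Atf4, the central transcription factor of the pathway (ENSMUSG00000042406.7, chr15:80255184-80257541, plus strand), had the highest level per exon length of the 10 genes. It stood at 110.6, 218 and 137 CPM in the 3 sham libraries and at 111, 132 and 128 CPM in the 3 TBI libraries. Sham2 was again above all others, while the TBI libraries lay between Sham1 and Sham3 in level. The means were 155 ± 56.1 in sham and 124 ± 11.4 CPM in TBI, with a log2 fold change of -0.33 (SE 0.254, edgeR adjusted p = 0.982). Without Sham2 the sham mean was 123.66 CPM, against 123.64 in TBI over 3 libraries, and the log2 fold change was -0.00081, with an upper bound of 1.30-fold. Without Sham2 and TBI1 together the sign turned, to 0.073.

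Atf5, a related factor that also escapes the translational block (ENSMUSG00000038539.15, chr7:44812256-44816658, minus strand), varied least of all 10 genes, by 1.26 times from the lowest to the highest library. Its levels were 36.5, 46.2 and 38.2 CPM in sham and 37.5, 37.5 and 42.8 CPM in TBI. The groups overlapped almost fully, and the log2 fold change was -0.037 (SE 0.141, edgeR adjusted p = 0.992) with an interval from 0.771-fold to 1.23-fold. Without Sham2 it was 0.072. Of the exonic bases of Atf5, 82 (4.11%) are shared with Nup62 and Il4i1 on the opposite strand. Nup62, a nuclear pore protein, averaged 9.53 ± 0.887 CPM in sham and 32.0 ± 2.45 CPM in TBI, while Il4i1 averaged 0.815 and 1.33 CPM. The strandedness of the counting is not given in the sources used here, so reads from these shared bases cannot be told apart.

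Ddit3 encodes CHOP, a factor linked to cell death under prolonged ER stress (ENSMUSG00000025408.15, chr10:127290774-127296288, plus strand). Its levels were 27.8, 38.4 and 33.1 CPM in sham and 39.5, 28.4 and 33.2 CPM in TBI. Each group held a high, a middle and a low library, and the means were 33.1 ± 5.29 and 33.7 ± 5.57 CPM. The log2 fold change was 0.026 (SE 0.185, edgeR adjusted p = 0.994), with an interval from 0.750-fold to 1.38-fold. It turned to -0.077 without Sham1 and to -0.10 without TBI1. Mars, a tRNA synthetase gene, shares 68 bases (3.97%) of the Ddit3 exons on the opposite strand, and averaged 47.1 CPM in sham and 47.9 in TBI. Gm4189 shares 13 bases and averaged 0.396 and 0.270 CPM. Another gene model with the symbol Ddit3 shares 105 exonic bases and was not analysed here.

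**Figure D1:**
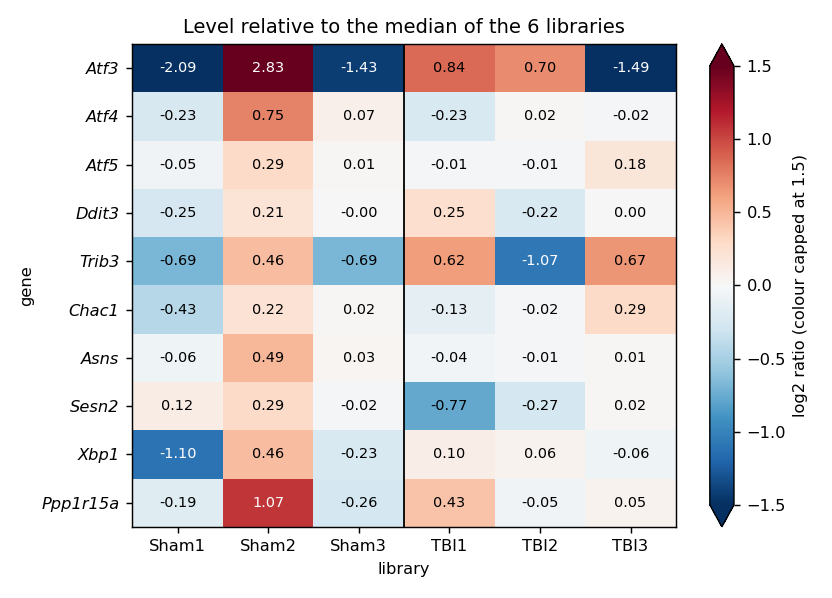
Level of each of the 10 genes (rows) in each library (columns), as the log2 ratio to the median of the 6 libraries, printed in each cell and coloured from blue (below) to red (above), with the colour capped at 1.5. Every gene is above the median in Sham2, by 0.21 for Ddit3 to 2.83 for Atf3, and no other library has 10 genes on one side.

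The targets downstream of ATF4 and CHOP gave the same result at the level of calls, with low levels for part of them. Trib3, a pseudokinase that restrains ATF4 and AKT signalling (ENSMUSG00000032715.9, chr2:152337422-152344032, minus strand), was near the lower limit of the data. It held 12 to 50 estimated counts per library, with levels of 0.494, 1.10 and 0.495 CPM in sham and 1.22, 0.379 and 1.26 CPM in TBI. The groups overlapped, and the interval of its fold change ran from 0.495-fold to 3.83-fold (log2 fold change 0.46, SE 0.618, edgeR adjusted p = 0.982). Leaving out 1 library moved its log2 fold change to 0.95 without Sham2 (unadjusted p = 0.211), 0.83 without TBI2, 0.28 without Sham1, 0.27 without Sham3, 0.24 without TBI1 and 0.21 without TBI3.

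Chac1, which degrades glutathione (ENSMUSG00000027313.3, chr2:119351229-119354381, plus strand), stood at 6.12, 9.60 and 8.39 CPM in sham and at 7.55, 8.12 and 10.1 CPM in TBI. The groups overlapped and the highest library was TBI3. The means were 8.04 ± 1.76 and 8.58 ± 1.32 CPM, with a log2 fold change of 0.094 (SE 0.241, edgeR adjusted p = 0.985). Its sign turned without Sham1 (-0.063) and without TBI3 (-0.041), and without Sham2 the value was 0.24.

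Asns, the asparagine synthetase and a standard readout of amino acid shortage (ENSMUSG00000029752.12, chr6:7675169-7693254, minus strand), was the most even gene among the TBI libraries. Its levels were 73.0, 107 and 78.0 CPM in sham and 73.8, 75.4 and 76.9 CPM in TBI, where the coefficient of variation was 2.02%. The TBI libraries lay between Sham1 and Sham3, and Sham2 stood above them all. The log2 fold change was -0.19 (SE 0.165, edgeR adjusted p = 0.982), -0.0030 without Sham2 with an upper bound of 1.21-fold, and 0.011 without Sham2 and TBI1.

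Sesn2, which restrains mTORC1 when leucine is short (ENSMUSG00000028893.8, chr4:132492032-132510501, minus strand), had the smallest p of the 10 genes. It stood at 20.7, 23.4 and 18.8 CPM in sham and at 11.2, 15.9 and 19.4 CPM in TBI. TBI1 and TBI2 lay under every sham library, while TBI3 lay above Sham3, so the groups overlapped. The means were 21.0 ± 2.30 and 15.5 ± 4.10 CPM, with a log2 fold change of -0.44 (SE 0.229), an unadjusted p of 0.102 and an edgeR adjusted p of 0.982. Without TBI3 the log2 fold change was -0.64, with an unadjusted p of 0.0311 and an edgeR adjusted p of 0.9996. In that fit 1.38% of tested genes were lower in TBI at an unadjusted p under 0.05. The log2 fold change was -0.25 without TBI1, -0.35 without Sham2 and -0.16 without both of these. It was negative under every alternative run. TBI3 is the library with cerebellar markers and TBI1 that with striatal markers, and their part in the value of Sesn2 was not tested.

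Ppp1r15a encodes GADD34, which directs protein phosphatase 1 to eIF2 and so ends the response (ENSMUSG00000040435.12, chr7:45522916-45526268, minus strand). Its levels were 13.5, 32.1 and 12.7 CPM in sham and 20.6, 14.8 and 15.8 CPM in TBI. Sham2 was 2.45 times the mean of the other sham libraries, and all 3 TBI libraries lay above those other 2 sham libraries. The means were 19.4 ± 11.0 and 17.1 ± 3.08 CPM, and the log2 fold change of -0.19 (SE 0.387, edgeR adjusted p = 0.984) became 0.38 without Sham2 (unadjusted p = 0.113, edgeR adjusted p = 0.997). Of its exons 12 bases (0.409%) are shared with Tulp2 on the opposite strand, which averaged 0.226 CPM in sham and 0.396 in TBI.

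Xbp1, the transcription factor of the IRE1 arm (ENSMUSG00000020484.18, chr11:5520659-5525893, plus strand), varied among the sham libraries and little among the TBI libraries. It stood at 35.3, 104 and 64.6 CPM in sham and at 81.3, 78.8 and 72.7 CPM in TBI. The sham libraries lay below and above the TBI libraries, whose coefficient of variation was 5.66% against 51.0% in sham. The log2 fold change was 0.19 (SE 0.358, edgeR adjusted p = 0.984). It was 0.64 without Sham2 (unadjusted p = 0.0556, edgeR adjusted p = 0.997) and -0.12 without Sham1.

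**Figure D2:**
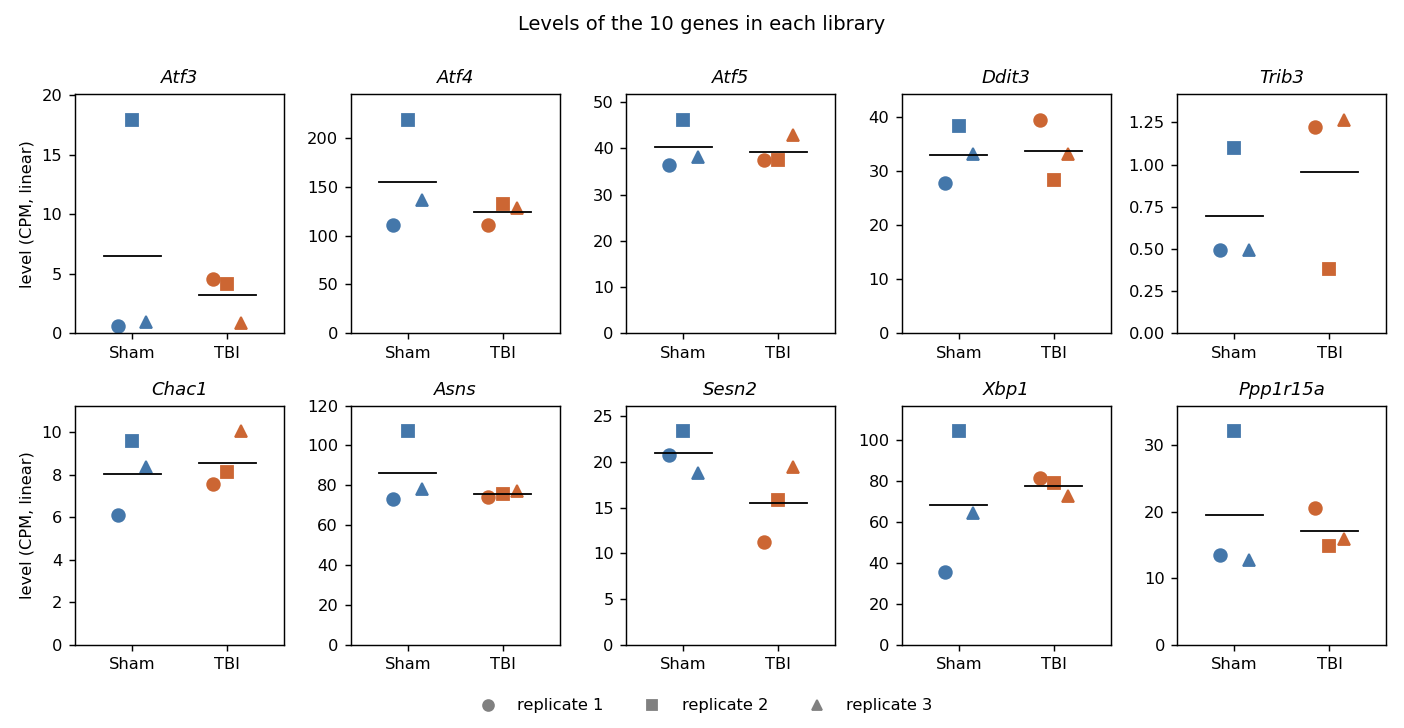
Level (CPM, linear axis from 0) of each of the 10 genes in the 3 sham (blue) and 3 TBI (orange) libraries, with the shape of each point giving its replicate number and the line the group mean. Sham2, the blue square, is the highest point for 7 genes, and the 3 TBI points of Asns and Xbp1 lie close together.

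Per length of exon, the order of the 10 genes was close in both groups. In sham, Atf4 led at 65.8 ± 23.8 CPM per kilobase, followed by Asns at 31.5, Xbp1 at 21.0, Atf5 at 20.2 and Ddit3 at 19.3. Lower levels followed, at 6.62 for Ppp1r15a, 6.03 for Sesn2, 4.91 for Chac1, 3.01 for Atf3 and 0.327 for Trib3. Of these neighbours, the libraries were apart for Atf4 above Asns and for Ddit3 above Ppp1r15a, and overlapped for the others. In TBI, Atf4 stood at 52.4 ± 4.85 CPM per kilobase, Asns at 27.6 and Xbp1 at 23.9, and each was apart from the next gene in the order. Atf5 and Ddit3 (both 19.7) overlapped, and the lower genes were Ppp1r15a at 5.81, Chac1 at 5.24, Sesn2 at 4.46, Atf3 at 1.48 and Trib3 at 0.450. Among these, Ddit3 above Ppp1r15a and Sesn2 above Atf3 were apart, and the other neighbours overlapped.

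Taken as a list, 4 of the 10 genes were higher and 6 lower in TBI by the sign of the fold change, with a median log2 fold change of -0.11 against 0.0091 over all tested genes. For none of the 10 did the sham and TBI libraries fail to overlap, where 10.2% of all tested genes did not overlap. The upper bound of the interval was under 1.5-fold for 5 genes, Atf4, Atf5, Ddit3, Asns and Sesn2, and for Atf5 and Ddit3 the whole interval lay within 1.5-fold either way. Without Sham2 the upper bound was under 1.5-fold for 4 genes, Atf4, Atf5, Asns and Sesn2. Without Sham2, 7 genes were higher and 3 lower, with a median of 0.19, beside 0.025 over all genes tested in that fit. Xbp1 and Ppp1r15a then had all TBI libraries above the remaining sham libraries, where 10.1% of all tested genes did. Without Sham1, 1 gene was higher and 9 lower. The sign of the list thus depended on which sham library was left out, and none of these fits called a member.

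**Figure D3:**
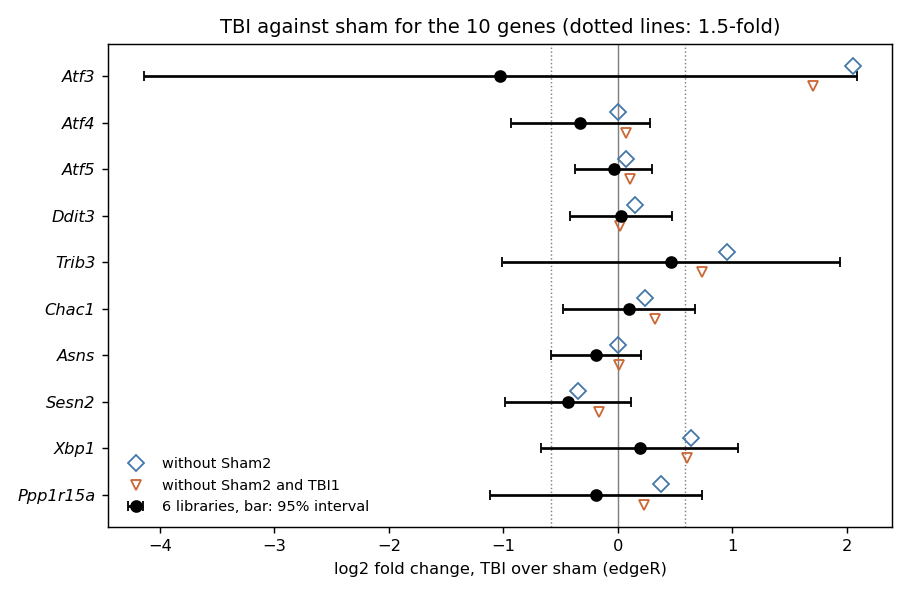
Log2 fold change of TBI over sham from edgeR for each of the 10 genes, over all 6 libraries (black points, with 95% intervals as bars), without Sham2 (blue diamonds) and without Sham2 and TBI1 (orange triangles), with dotted lines at 1.5-fold. All black bars cross 0, and Atf3 moves from -1.03 to 2.05 without Sham2.

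Across libraries, Sham2 was the highest of all 6 for 7 of the 10 genes, namely Atf3, Atf4, Atf5, Asns, Sesn2, Xbp1 and Ppp1r15a. Over all tested genes Sham2 was the highest for 23.7%. The remaining 3 genes peaked in TBI, with Ddit3 in TBI1 and Trib3 and Chac1 in TBI3. Relative to the median of the 6 libraries, the 10 genes lay 0.46 higher in Sham2 in median on the log2 scale, while the median over all tested genes lay at -6.2e-05. The lowest library was Sham1 for 7 of the 10 genes, against 15.9% of all tested genes, and the median there was -0.24. In the other 4 libraries the median of the 10 genes lay between -0.019 and 0.044. The spread was wider in sham than in TBI for 7 of the 10 genes, against 49.05% of all tested genes, and wider in TBI for Ddit3, Trib3 and Sesn2.

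The reactive astrocyte markers and most neuronal activity genes also peaked in Sham2, while the microglial markers did not. All 8 reactive astrocyte markers were highest in Sham2, among them Gfap, the filament protein of astrocytes, at 4055 CPM against 541 to 1478 in the other libraries, and Cd44 at 135 against 3.09 to 24.6. Gfap and Cd44 were picked after their values were seen. Their list had a median log2 fold change of -0.68 over all libraries and 1.20 without Sham2. Of the neuronal activity genes, which include Fos and Arc, 5 of 7 were highest in Sham2, where they summed to 657 CPM against 345 and 415 in the other sham libraries and 165 to 589 in TBI, with none at 0. Leukocyte markers summed to 19.7 CPM in Sham2, 2.86 and 7.16 in the other sham libraries and 4.56 to 12.3 in TBI, with Ccr2, Cd3e and Plac8 at 0 in some library. Of the 6 tested leukocyte markers, 3 were highest in Sham2. Microglial markers summed to 444 CPM in Sham2, 333 and 369 in the other sham libraries and 344 to 644 in TBI. Of these 8 markers 7 were highest in TBI1 and 0 in Sham2. The part of these cells and states in the levels of the 10 genes was not tested.

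The wider pathway was described from 6 lists of genes, 94 genes in all, of which 92 were tested. Neither edgeR nor DESeq2 called any of them. At an unadjusted p under 0.05, edgeR passed 2 higher and 1 lower gene, or 3.26% of them, beside 4.29% of all tested genes. By sign, 32 were higher and 60 lower, with a median log2 fold change of -0.056, beside 9662 higher and 9133 lower of all tested genes. Without Sham2 the balance turned, with 54 of 92 higher and 38 lower, beside 10423 higher and 8875 lower of all genes tested in that fit. The median was then 0.045, beside 0.025 over all genes tested in that fit. Sham2 held the highest level for 43 of the 92 genes (46.7%), beside 23.7% of all tested genes.

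The upstream list holds the 4 eIF2 kinases, subunits of eIF2 and of its exchange factor eIF2B, and phosphatase genes. Of its 17 tested genes 6 were higher and 11 lower, with a median of -0.052 (0.046 without Sham2), 0 at an unadjusted p under 0.05 and 11 highest in Sham2. Ppp1ca, the catalytic subunit that GADD34 binds, stood at 257, 246 and 227 CPM in sham and at 434, 238 and 224 in TBI, high in TBI1 alone. Impact, a neuronal brake on the kinase GCN2, stood at 197, 237 and 275 CPM in sham and at 217, 268 and 271 in TBI. Among the genes of amino acid synthesis and transport, 8 of 17 were higher and 9 lower, with a median of -0.023 (0.091 without Sham2), and 8 were highest in Sham2. Slc6a9, the glycine transporter GlyT1, stood at 46.6, 41.8 and 60.5 CPM in sham and at 67.1, 63.4 and 108 in TBI. Its groups did not overlap, as for 10.2% of all tested genes. Its log2 fold change was 0.68 (SE 0.250) with an unadjusted p of 0.0314 and an edgeR adjusted p of 0.982. Got1, an aspartate aminotransferase, lay between 247 and 275 CPM in all libraries. Slc38a2, a neutral amino acid transporter, stood at 86.6, 189 and 132 CPM in sham and at 149, 140 and 147 in TBI, with Sham2 the highest and Sham1 the lowest library. Against the list, Phgdh and Psat1, the first steps of serine synthesis, were lowest in Sham2, at 41.3 and 68.6 CPM against at least 94.3 and 109.6 elsewhere. Both were picked after their values were seen.

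The tRNA synthetase list, with the tRNA exporter Xpot, had the largest share of genes highest in Sham2 among the 6 lists. Of its 12 genes 11 were highest in Sham2, and 2 were higher and 10 lower in TBI with a median of -0.11 (0.029 without Sham2). Nars stood at 240, 293 and 250 CPM in sham and at 212, 244 and 271 in TBI, and Sars at 176, 217 and 174 against 164, 185 and 197. These genes load asparagine and serine onto their tRNAs. Wars, the tryptophan enzyme and also an interferon target, was the exception. It stood at 54.1, 59.5 and 51.7 CPM in sham and at 97.3, 93.5 and 53.9 in TBI, so that TBI3 lay among the sham libraries, with a log2 fold change of 0.57 (SE 0.232), an unadjusted p of 0.0468 and an edgeR adjusted p of 0.982.

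Of the stress and death targets of ATF4 and CHOP, 13 of 15 genes were tested, with 4 higher and 9 lower, a median of -0.13 (-0.0039 without Sham2) and 0 at an unadjusted p under 0.05. Sqstm1, the autophagy receptor p62, stood at 414, 483 and 395 CPM in sham and at 418, 373 and 391 in TBI, and Ddit4, an mTORC1 inhibitor, at 103, 94.3 and 138 against 95.5, 148 and 152. Sham2 was the highest library for 7 of the 13 genes. Nupr1 and Eif4ebp1, picked after their values were seen, had 40.9 and 20.0 CPM in Sham2 against no more than 21.1 and 7.96 in any other library. Gdf15 and Fgf21, secreted stress hormones picked in the same way, did not pass the filter on low values. They held 68 and 79 estimated counts in Sham2, against at most 25 and 4 in the other libraries, with some of those at 0.

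The list of the IRE1 and ATF6 arms with ER chaperones and ER-associated degradation genes did not peak in Sham2. Of its 28 genes 4 were highest in Sham2, 12 in Sham3 and 7 in TBI1. In this list 10 genes were higher and 18 lower in TBI, with a median of -0.023 (0.0074 without Sham2). Atf6b, a paralog of the ER stress sensor Atf6, stood at 77.2, 76.1 and 81.9 CPM in sham and at 65.8, 69.6 and 62.1 in TBI. Its groups did not overlap, and its log2 fold change was -0.25 (SE 0.105) with an unadjusted p of 0.0487 and an edgeR adjusted p of 0.982. The eIF2, tRNA synthetase and stress target lists each held 1 gene whose groups did not overlap, lower in TBI. Over all tested genes 10.2% did not overlap. The membrane chaperone Canx lay between 332 and 388 CPM in all libraries, and the ER chaperone Hsp90b1 stood at 280, 287 and 376 CPM in sham and at 349, 384 and 311 in TBI. Hspa5, the chaperone BiP that holds the ER sensors inactive and picked after its values were seen, stood at 90.7, 152 and 199 CPM in sham and at 142, 231 and 185 in TBI. Whether the high levels in Sham2 differ between these lists was not tested.

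Among 7 paralogs of the 10 genes, 2 were higher and 5 lower, with a median of -0.091 and 0 at an unadjusted p under 0.05. Without Sham2, 5 of the 7 were higher and the median was 0.051. Sesn3 stood at 23.1, 114 and 29.0 CPM in sham and at 226, 141 and 24.0 in TBI, a log2 fold change of 1.23 (SE 0.899, edgeR adjusted p = 0.982) that was 2.32 without Sham2 and 0.57 without TBI1. Sesn1 stood at 73.1, 46.7 and 81.0 CPM in sham and at 56.8, 90.5 and 92.3 in TBI. The paralogs of Sesn2 thus had other library profiles than Sesn2 itself: Sesn3 was highest in TBI1, where Sesn2 was lowest, and Sesn1 was lowest in Sham2, where Sesn2 was highest. Trib1, picked after its values were seen, stood at 71.0 CPM in Sham2 against 13.7 to 27.6 in the other libraries.

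**Figure D4:**
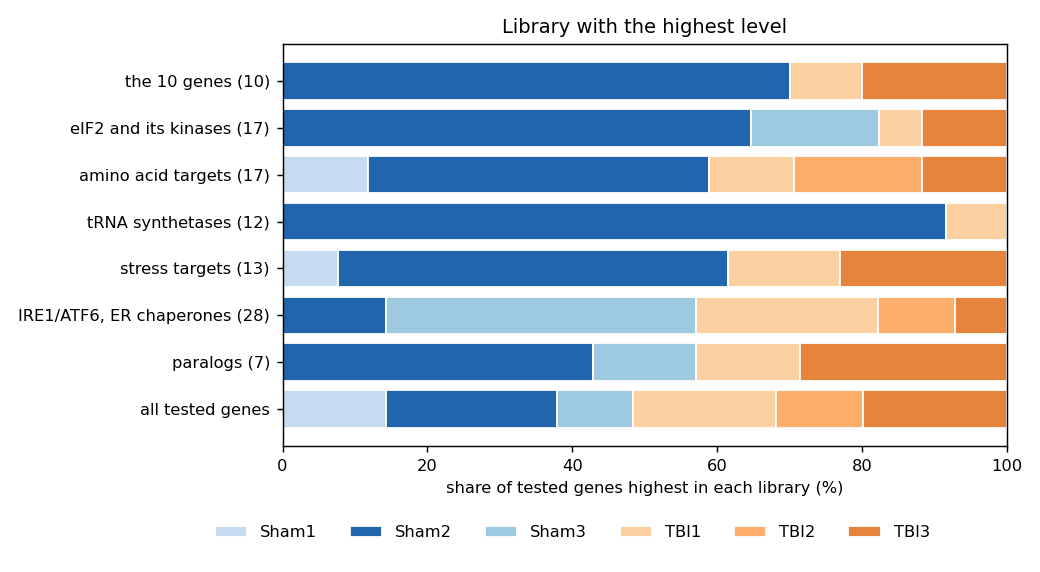
Share of tested genes (%) whose highest level was in each of the 6 libraries, for the 10 genes, the 6 pathway lists (number of tested genes in parentheses) and all tested genes, with sham libraries in blue and TBI libraries in orange. Sham2, the dark blue segment, takes 7 of 10 genes, 11 of 12 tRNA synthetase genes and 4 of 28 ER chaperone and sensor genes, beside 23.7% of all tested genes.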

How the data were processed

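Hippocampal RNA from 3 sham and 3 TBI mice was sequenced, and groups were taken from the sample labels. The authors ran FastQC on the reads, used HISAT2 for alignment to GRCm38 and StringTie for quantification. They deposited estimated counts for each gene, as whole numbers and without normalization. Versions of these tools, the strandedness and how coverage was turned into counts are not given in the sources used here. Low values pile up at multiples of 4 (the value 4 occurs 5109 times, the value 3 occurs 2325 times), so 1 count does not stand for 1 read and no counting interval was computed. All values were whole, so none was rounded.

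A symbol was found for 52403 of 52550 identifiers, and 147 had none. Positions came from GENCODE vM21 and promoters from RefSeq (GRCm38.p6). Counts were filtered with filterByExpr by group, which left 18795 of the 28289 genes with a count, scaled by TMM and tested with the quasi-likelihood test of edgeR 4.0.16 (limma 3.58.1, R 4.3.3), with Benjamini-Hochberg adjustment over all tested genes. The dispersion common to all genes was a biological coefficient of variation of 0.374. Calls used the thresholds of the study (p 0.05, adjusted p 0.1, 1.5-fold). Standard errors came from the fold change and the F statistic, and 95% intervals from the total degrees of freedom. The procedure was tested on simulated counts. The p-values weigh the difference between groups against the spread between libraries. With 1 library per mouse, differences between mice, dissections and libraries cannot be told apart.

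The 10 genes and the lists were chosen with earlier results of these data known. Named were the 10 genes, per pathway list the genes at an unadjusted p under 0.05 (at most 3) and the 2 with the highest mean CPM, genes whose exons overlap those of the 10, and marker genes where a result turned on them. Phgdh, Psat1, Nupr1, Eif4ebp1, Gdf15, Fgf21, Hspa5, Trib1, Gfap, Cd44 and Wfs1 fall outside this rule and were picked after their values were seen. Alternatives were DESeq2 1.42.0 with and without its defaults, RLE, upper-quartile and library-total scaling, no filter, a filter of 10 counts in every library, counts divided by 4, robust dispersions, the replicate number as a block, an unadjusted p and each library left out. Those chosen after seeing the data were Sham2 and TBI1 left out together, and DESeq2 without Sham2 or without TBI1.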

Additional observations from a re-analysis of the deposited data

How the results depend on the processing

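None of the 10 genes was called under any alternative run that gave it a p (0 calls), and the adjusted p of a member ranged from 0.540 (Atf3, DESeq2 without Sham2) to 0.99993. DESeq2 gave Atf3 no p over all 6 libraries, as for 171 genes with a count. Over all genes, 0 calls by edgeR became 46 with DESeq2 defaults, 43 with DESeq2 on the filtered genes, 806 at an unadjusted p under 0.05, and, chosen after seeing the data, 3 without Sham2 and TBI1, 62 with DESeq2 without Sham2 and 43 with DESeq2 without TBI1. Leaving out each library in turn gave 0 to 1 calls, the single call without TBI1. Pathway genes numbered 0 called and 3 at an unadjusted p. At an unadjusted p under 0.05, edgeR passed 1 of the 10 genes without Sham2, beside 3.39% of all genes tested in that fit. It passed 1 without TBI3, DESeq2 passed 2 without Sham2, and every other fit passed 0. Scaling, filter, dispersion and the division by 4 turned no sign of the 10 genes. With the replicate number as a block, 0 genes were called and Atf3 turned to 0.14 on the log2 scale. Samples with the same number did not deviate together (Pearson r over genes of -0.0996, -0.065 and 0.153 for numbers 1 to 3, against 0.210 for Sham2 with TBI1), so they were not treated as pairs. Leaving out libraries turned the sign of 8 genes (all but Trib3 and Sesn2), and the cause was not tested. Over single libraries left out, the log2 fold changes ranged from -1.56 to 2.05 for Atf3, -0.52 to -0.00081 for Atf4, -0.11 to 0.072 for Atf5, -0.10 to 0.15 for Ddit3, -0.063 to 0.24 for Chac1, 0.21 to 0.95 for Trib3, -0.64 to -0.25 for Sesn2, -0.29 to -0.0030 for Asns, -0.12 to 0.64 for Xbp1 and -0.42 to 0.38 for Ppp1r15a. Without Sham2 and TBI1 the values were 1.70 for Atf3, 0.073 for Atf4, 0.10 for Atf5, 0.33 for Chac1, 0.011 for Asns and 0.22 for Ppp1r15a. DESeq2 gave 2.05 for Atf3, 0.063 for Atf5 and 0.37 for Ppp1r15a without Sham2, and -0.12 for Ddit3 without TBI1. With 3 mice a group and a spread of this size, a change of Atf3 or Trib3 of several-fold lies within the intervals.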
